A study of Mus musculus with 7 samples.

Results

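The immediate early response genes described here are Fos, Fosb, Jun, Junb, Egr1, Egr2, Ier2, Atf3, Dusp1 and Nr4a1. They were taken as every probe set annotated to one of these symbols and to no other gene, which gave 12 probe sets for 10 genes out of 12393 genes with a probe set of their own. All 10 genes passed the filter on dim genes, Fosb only through the arrays called numbered below. Total RNA of mouse fetal liver cells had been hybridised to 7 single-colour short-oligonucleotide arrays. The groups were a feeder cell layer from fetal liver (n = 1), liver endothelial progenitors that were not sorted (n = 1), progenitors positive for Sca1 (Sca1+, n = 2) and progenitors negative for it (Sca1-, n = 3). Sca1 is a cell surface protein by which stem and progenitor cells are often enriched. The labels name no strain, fetal age, culture time, separate animals or cell handling, so p-values measure only the spread between these arrays, which may be technical, and the small number of arrays limits the precision. Of the 5 sorted arrays, 3 carry a sample number in their title (Sca1+ replicate 2 and Sca1- replicates 2 and 3) and are called numbered arrays here, while 2 carry none (Sca1+ replicate 1 and Sca1- replicate 1) and are called unnumbered. Signals are scaled to a trimmed mean of 500 on each array, and log2 values have a floor of 64.

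Immediate early genes are switched on within minutes of a stimulus, without the need for new protein synthesis. Growth factors, stress and calcium signals reach them through MAP kinases, which act on factors such as SRF, its ternary complex partners and CREB that already sit at their promoters. Their transcripts are short-lived, and enzymatic tissue digestion and cell sorting are widely known to raise them, so that their level in isolated cells also depends on how long and how the cells were handled. In bulk RNA, fewer cells of a type and less RNA per cell cannot be told apart.

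The promoters of 8 of the 10 genes were taken from the RefSeq table (GRCm38.p6), each with at least 1 window of 300 bases from 250 before to 50 after the annotated start. For the 10 genes, windows on 1 chromosome were left out, while the shares over all genes keep every chromosome. Those of Egr1 and Ier2 were not among the windows searched, so the counts below say nothing about these genes. The windows shown are those of Fos and Atf3, whose signals varied less between arrays, and of Fosb, Junb and Nr4a1, whose signals varied most apart from Jun. They are written on the strand of the gene, and capitals mark the 5 letters TGACG on either strand, the core of the site read by CREB and ATF proteins.
Fos, chr12:85473640-85473939, plus strand: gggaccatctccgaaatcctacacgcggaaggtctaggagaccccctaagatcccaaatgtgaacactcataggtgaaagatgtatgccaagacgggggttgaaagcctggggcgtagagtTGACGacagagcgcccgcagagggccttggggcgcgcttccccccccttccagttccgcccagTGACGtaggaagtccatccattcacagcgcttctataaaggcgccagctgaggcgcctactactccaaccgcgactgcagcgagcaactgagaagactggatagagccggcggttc
Atf3, chr1:191183284-191183583, minus strand: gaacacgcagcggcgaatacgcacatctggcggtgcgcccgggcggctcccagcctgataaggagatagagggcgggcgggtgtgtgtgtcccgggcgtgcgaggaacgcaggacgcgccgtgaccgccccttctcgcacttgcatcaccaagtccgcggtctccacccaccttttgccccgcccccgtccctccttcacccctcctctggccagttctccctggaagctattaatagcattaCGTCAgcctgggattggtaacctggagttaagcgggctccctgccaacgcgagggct
Fosb, chr7:19309996-19310295, minus strand: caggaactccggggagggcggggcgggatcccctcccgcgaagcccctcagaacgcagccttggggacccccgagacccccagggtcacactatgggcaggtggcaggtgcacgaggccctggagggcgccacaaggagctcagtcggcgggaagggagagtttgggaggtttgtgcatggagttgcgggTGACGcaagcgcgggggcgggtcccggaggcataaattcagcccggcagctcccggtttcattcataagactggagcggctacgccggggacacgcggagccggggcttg
Junb, chr8:84978699-84978998, minus strand: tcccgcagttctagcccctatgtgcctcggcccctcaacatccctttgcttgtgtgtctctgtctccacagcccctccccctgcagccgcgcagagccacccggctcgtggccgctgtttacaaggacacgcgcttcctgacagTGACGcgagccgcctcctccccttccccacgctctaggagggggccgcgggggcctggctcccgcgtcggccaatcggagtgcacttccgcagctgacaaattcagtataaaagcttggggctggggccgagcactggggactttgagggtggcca
Nr4a1, chr15:101266596-101266895, plus strand: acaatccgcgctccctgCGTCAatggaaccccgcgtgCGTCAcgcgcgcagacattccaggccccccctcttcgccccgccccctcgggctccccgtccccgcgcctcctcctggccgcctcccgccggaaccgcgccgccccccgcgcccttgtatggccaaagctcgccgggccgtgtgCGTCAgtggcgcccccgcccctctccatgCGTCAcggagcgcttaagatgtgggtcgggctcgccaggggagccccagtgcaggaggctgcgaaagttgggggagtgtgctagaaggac
TGACG, searched on both strands, was present in 7 of the 8 genes with a window, against 23% of all 27025 genes in the table, a gene counting when any of its windows holds the letters. By window it was in 9 of the 12 windows of these genes, against 20.8% of all 32851 windows. Overlapping windows of Egr2 that hold the same sites are each counted there, so the window count adds little to the count of genes. The Fos window holds it 2 times, 66 and 129 bases before the start, and that of Nr4a1 holds it 4 times. The window of Atf3 holds it 7 bases before the start, that of Fosb 60 and that of Junb 106 bases before it. The longer form TGACNTCA, which contains TGACG where N is G, was found for Jun and Dusp1 and for 10% of all genes. The AP-1 site TGANTCA was found for none of the 8 genes and for 8.97% of all genes. The CArG box, the site of SRF, was found for Egr2 and for 1.81% of all genes. Sites more than 250 bases before the start lie outside the windows and were not searched. The same letters stand in promoters of genes that differed strongly between arrays and of genes that differed less. These matches describe letters in these windows and are not evidence of binding.

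The AP-1 transcription factor is a dimer of a Jun protein with a Fos or ATF protein, and its subunit genes differed widely in how much they varied across the arrays. Fos, the founding Fos subunit, had a signal of 12882 on the feeder array, 12562 on the unsorted array, 18234 and 16653 in Sca1+ and 10697, 15735 and 15206 in Sca1-. It was therefore high on every array, and its whole range was 0.77 on the log2 scale. Fosb, a second Fos subunit, had 992 on the feeder array, 684 on the unsorted array, 96.4 and 1324 in Sca1+ and 58.2, 857 and 838 in Sca1-. Jun, which forms the main dimer with Fos, had 3823 on the feeder array, 2066 on the unsorted array, 386 and 4565 in Sca1+ and 163, 3156 and 3308 in Sca1- at its brighter probe set. Junb, a Jun relative that restrains growth in several cell types, had 2675 on the feeder array, 3271 on the unsorted array, 305 and 5069 in Sca1+ and 149.7, 4018 and 3989 in Sca1-. For Fosb, Jun and Junb the first replicate of each sorted fraction lay far below the other 5 arrays, and the feeder and unsorted arrays were close to the numbered sorted arrays. Atf3, a stress-induced factor that pairs with Jun proteins, had 2908 on the feeder array, 2209.8 on the unsorted array, 1558 and 2301 in Sca1+ and 979.8, 1721 and 1686 in Sca1-. Its order followed the same arrays with a range of 1.57 on the log2 scale over all 7.

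The zinc-finger factors differed from each other. Egr1, which links growth signals to a broad set of targets, had 9163 on the feeder array, 7937 on the unsorted array, 6741 and 16255 in Sca1+ and 3479, 11069.8 and 9778 in Sca1-. Egr2, a factor of myeloid cells, lymphocytes and Schwann cells, had 690.4 on the feeder array, 514 on the unsorted array, 278 and 519.8 in Sca1+ and 282, 387 and 285 in Sca1-. Egr1 was highest on Sca1+ replicate 2 and lowest on Sca1- replicate 1, whereas Egr2 was highest on the feeder array. The orphan nuclear receptor gene Nr4a1, which also marks recent receptor signalling, had 3466 on the feeder array, 2409 on the unsorted array, 213 and 1992 in Sca1+ and 156, 1469.5 and 1325 in Sca1-. It was the one gene of the 10 for which both the feeder and the unsorted array lay above all 5 sorted arrays. Ier2, which encodes a small nuclear protein, had 4093 on the feeder array, 3828 on the unsorted array, 1613 and 3919 in Sca1+ and 3393, 5001 and 4513 in Sca1-. Dusp1, a phosphatase that switches MAP kinases off again, had 9175 on the feeder array, 6084 on the unsorted array, 3536 and 9486 in Sca1+ and 2597, 7322 and 6815 in Sca1-. Ier2 was lowest on Sca1+ replicate 1 alone, while Dusp1 was low on both unnumbered sorted arrays. Sca1- replicates 2 and 3 differed by at most 0.44 on the log2 scale for any of the 10 genes.

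**Figure D1:**
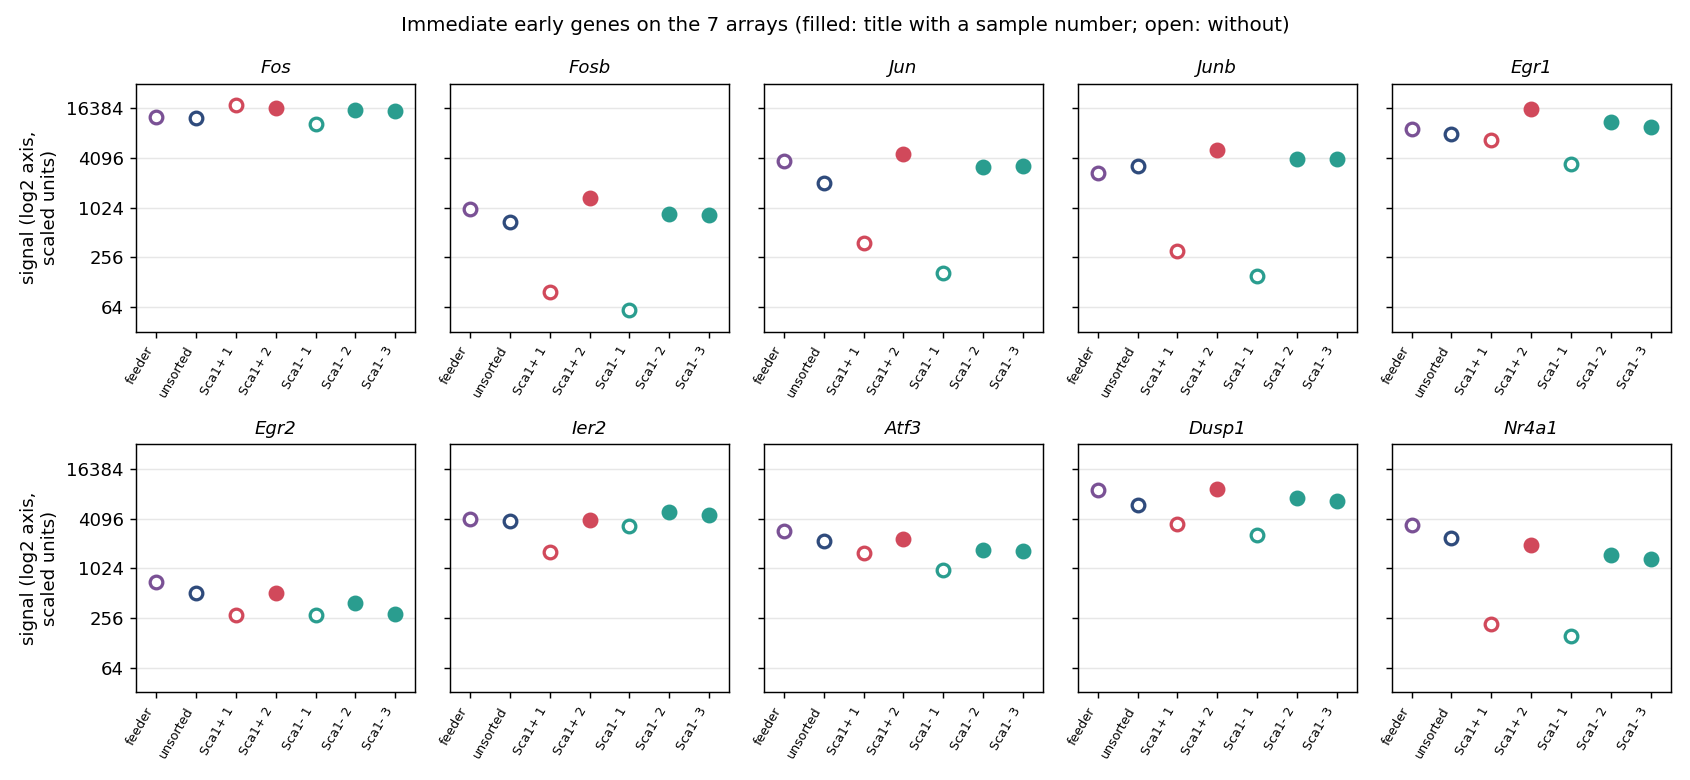
Signal of the 10 immediate early genes (1 panel each, log2 axis, scaled units) on the feeder array, the unsorted array, 2 Sca1+ arrays and 3 Sca1- arrays, each point 1 array, filled where the title carries a sample number. Fosb, Jun, Junb and Nr4a1 drop on the open Sca1+ and Sca1- points, from 58.2 to 386, while Fos stays between 10697 and 18234 on all 7 arrays; heights are not comparable between panels because each gene has its own probes.

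The comparison of numbered with unnumbered sorted arrays shows how far these genes differ between arrays of the same sorted fractions. Of the 10 genes, 6 were higher on the numbered arrays and 0 were lower at an adjusted p under 0.05, where 11.8% of the 8591 genes tested were called higher and 7.46% lower. The genes called were Junb, Jun, Fosb, Nr4a1, Egr1 and Dusp1. Fosb, at 96.4 and 58.2 on the unnumbered arrays, passed the filter (a signal above 100) only through the numbered arrays, where it was called higher. The test was limma with group as a second term and Benjamini-Hochberg adjustment over all genes tested. Junb was higher by a log2 difference of 4.45 ± 0.25 (SE, limma adjusted p = 0.00127), a 21.8-fold difference. Jun followed with 3.99 ± 0.26 (limma adjusted p = 0.00165), Fosb with 3.75 ± 0.26 (0.00190) and Nr4a1 with 3.19 ± 0.23 (0.00190). Egr1, at 1.45 ± 0.22 (limma adjusted p = 0.0102), and Dusp1, at 1.44 ± 0.20 (0.00863), differed 2.73-fold and 2.70-fold. Ier2 at 0.83 ± 0.26 (limma adjusted p = 0.0710), Atf3 at 0.70 ± 0.22 (0.0688), Egr2 at 0.52 ± 0.32 (0.287) and Fos at 0.25 ± 0.24 (0.496) did not pass. The median over the 10 genes was 1.44, against 0.10 over all genes tested. All numbered arrays lay above both unnumbered arrays for 9 of the 10 genes, Fos being the exception, and for 26.5% of all genes tested. For Egr2 the margin was slight, 285 on Sca1- replicate 3 against 282 on Sca1- replicate 1. For Jun this order held at the brighter probe set and not at the second one, described below.

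The difference was also taken within each sorted fraction. For Jun it was 3.56 between the Sca1+ arrays and 4.31 between the Sca1- arrays. For Junb it was 4.06 between the Sca1+ arrays and 4.74 between the Sca1- arrays, and for Fosb 3.78 and 3.73. For Nr4a1 it was 3.22 and 3.16, and for Dusp1 1.42 and 1.44. For Fos it was -0.13 between the Sca1+ arrays and 0.53 between the Sca1- arrays, so its direction was not shared. On Sca1- replicate 1 the signals of Fosb, Junb, Nr4a1 and the brighter Jun probe set lay below the highest background control of that array, 169.9. Fosb was also under the floor there. The size of these differences is therefore uncertain on that side. The second Jun probe set, described below, had a signal of 644 on that array. The corresponding control reached 55.2 on Sca1+ replicate 1, below all 10 genes. Without Sca1- replicate 1 the difference rests on the 2 Sca1+ arrays, 1 numbered against 1 unnumbered. It was then 1.27 for Egr1 and 1.28 for Ier2, and Fos changed sign to -0.13. Without either Sca1+ array the difference rests on the Sca1- arrays alone, 2 numbered against 1, with 1 residual degree of freedom and the same estimate either way. Atf3 at 0.80 then had an adjusted p of 0.0248 or 0.0265, and Fos at 0.53 one of 0.0514 or 0.0483. Without the filter on dim genes, Fosb and Nr4a1 kept their calls, while Jun, Junb and Dusp1 (adjusted p = 0.0503) and Egr1 (0.0760) lost theirs. Median scaling turned the split over all genes to 542 higher and 745 lower, against 1012 and 641 with the trimmed mean, and put the median over all genes at -0.10, and quantile normalization to 892 higher and 896 lower, with that median at -0.07. The difference of each of the 10 genes stayed above 0 with median scaling and with quantile normalization, where the medians over the 10 genes were 1.24 and 1.63. With quantile normalization Ier2 also passed, at 0.98 (adjusted p = 0.0346), which made 7 of the 10 called.

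Jun and Egr2 each have a second probe set, and for Jun they disagreed. The second Jun probe set had 1400.1 on the feeder array, 962 on the unsorted array, 1382 and 1252 in Sca1+ and 644, 974 and 1018 in Sca1-. It was not low on Sca1+ replicate 1, and its difference between numbered and unnumbered arrays was 0.30 ± 0.27 (SE, limma adjusted p = 0.457 in a fit of all 13251 probe sets), against 3.99 for the brighter one. Of 3085 genes with at least 2 tested probe sets, 364 (11.8%) had probe sets that differed by at least 2 on the log2 scale in this comparison, and 30 (0.972%) by as much as those of Jun, 3.69. The call on Jun therefore holds for 1 of its 2 probe sets. The second Egr2 probe set had 354 on the feeder array, 190.1 on the unsorted array, 39.8 and 185 in Sca1+ and 79.6, 113 and 136 in Sca1-. Like the brighter one it did not pass (1.02 ± 0.39, limma adjusted p = 0.111), and it was below the floor on Sca1+ replicate 1.

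**Figure D2:**
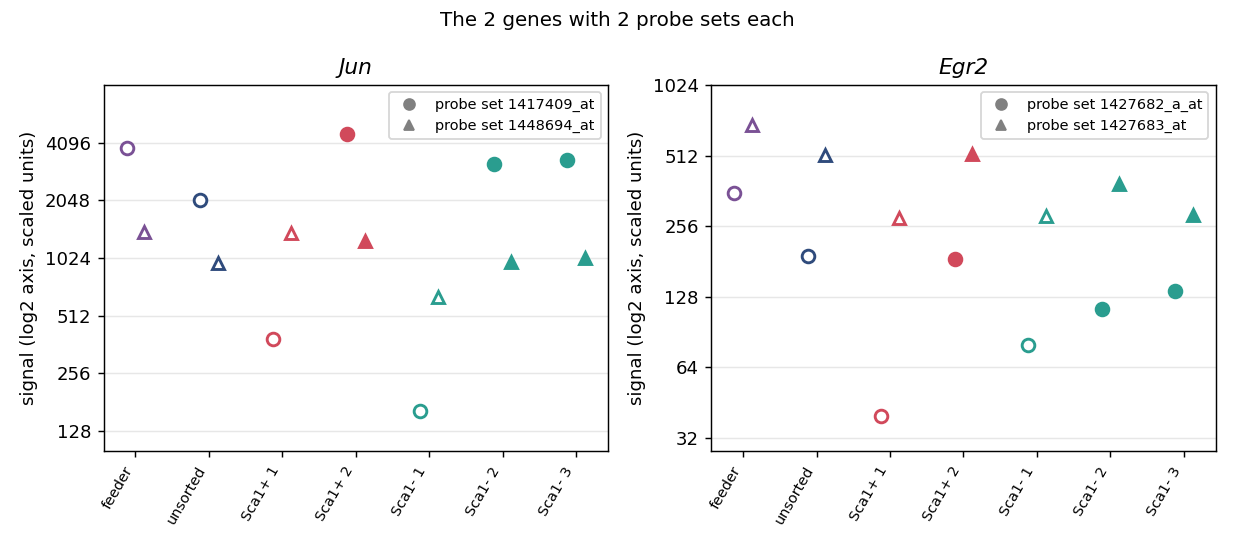
Signal (log2 axis, scaled units) of both probe sets of Jun and of Egr2 on each array, circles and triangles marking the probe sets and filled points the arrays with a sample number in the title. The Jun probe set shown by circles falls to 386 and 163 on the open sorted points, while the other stays between 644 and 1400.1 on all 7 arrays.

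Other properties of the arrays moved with this split. The control probe sets at the 3' and 5' ends of a transcript give a ratio that is high when RNA is truncated or the labelled copy is short. It was between 1.87 and 2.37 for Actb on the numbered arrays, against 6.83 and 13.5 on the unnumbered sorted arrays. For Gapdh it was between 2.04 and 2.16 on the numbered arrays, against 4.86 and 13.2 on the unnumbered ones. The feeder and unsorted arrays had Actb ratios of 1.03 and 1.01. The mean log2 signal of the 10 genes was 11.91, 11.57 and 11.46 on the numbered arrays, against 9.92 and 9.42 on the unnumbered sorted arrays, and 11.79 and 11.45 on the feeder and unsorted arrays. Fibroblast markers moved the same way: the summed signal of the 15 measured was 116181, 45956 and 43538 on the numbered arrays, against 11169 and 6562 on the unnumbered sorted arrays, with 15 of 15 above 100 on each numbered array and 8 of 15 on each unnumbered one. Granulocyte markers ran the other way, with 7 of 12 called lower on the numbered arrays, where their sums were 9814 in Sca1+ and 220413 and 194820 in Sca1-, against 137084 and 570343 on the unnumbered Sca1+ and Sca1- arrays. Of the tested markers, 14 of 15 for fibroblasts, 4 of 6 for hepatoblasts, 2 of 11 for macrophages and 0 of 9 for endothelium were called higher on the numbered arrays, against 11.8% of all genes. Of the macrophage markers 1 was called lower, Lyz2 at -1.07, and C1qa was higher by 2.48. The median difference of the 11 tested was 0.50, towards the numbered arrays. The summed signal of the macrophage markers, with Lyz2 as its largest part, ran the other way. It was 96982, 91746 and 82323 on the numbered arrays, against 131586 and 131443 on the unnumbered sorted arrays. The part of transcript truncation and of these cell type markers in the immediate early differences was not tested.

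**Figure D3:**
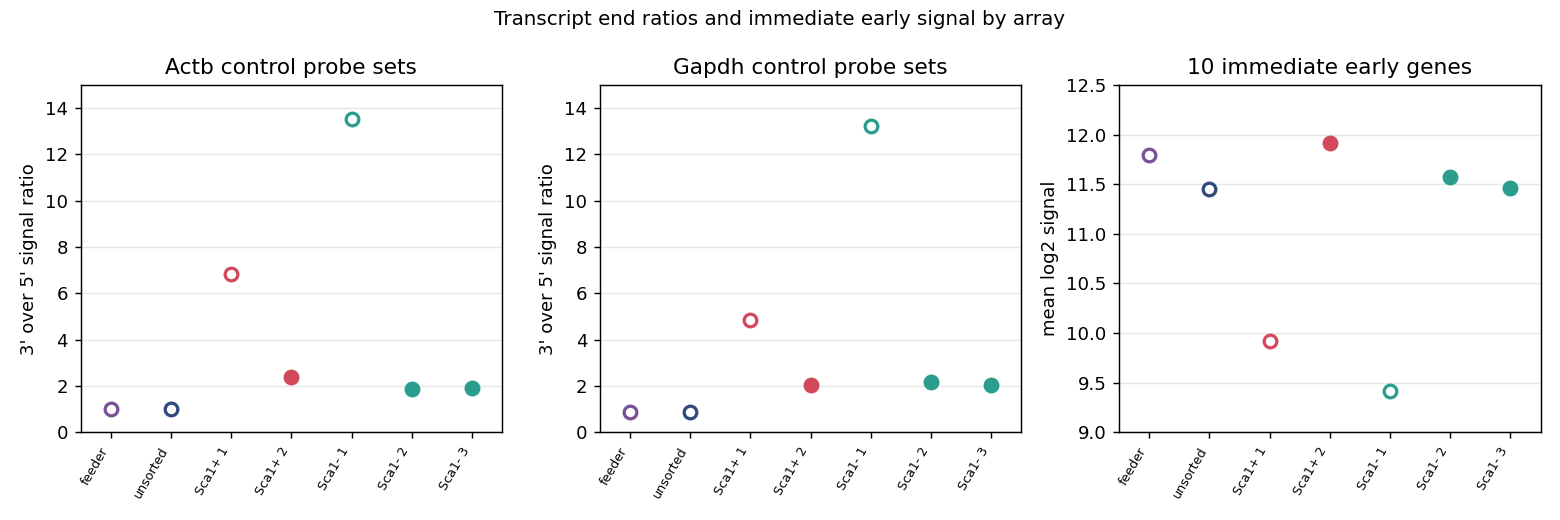
Ratio of 3' to 5' control signal for Actb (left) and Gapdh (middle) and mean log2 signal of the 10 immediate early genes (right) on each of the 7 arrays, each point 1 array, filled where the title carries a sample number. The 2 open sorted points have the highest ratios, from 4.86 to 13.5, and the lowest mean signals, 9.92 and 9.42.

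Sca1+ and Sca1- progenitors were compared to see whether these genes differ between the sorted fractions. None of the 10 passed: with group as the only term limma called 0 of 8591 genes (0% of all tested, 292 with an unadjusted p under 0.05), and none of the 10 genes had an unadjusted p under 0.05. Differences ran from -0.76 ± 0.49 (SE) for Ier2 to 0.54 ± 0.65 for Egr1, all with a limma adjusted p of 0.9995, and their median was 0.17 against 0.07 over all genes tested. The SE was 1.24 to 1.70 for Nr4a1, Fosb, Jun and Junb, whose arrays differed most between the numbered and unnumbered sets. Fos was the one gene with both of its Sca1+ signals above its 3 Sca1- signals, where 12.1% of all genes tested did so, and the opposite order held for 0 of the 10 genes, where 8.56% had it.

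With array set (numbered or not, the unsorted array counting as unnumbered) as a block the differences were tighter and 9 of the 10 were above 0, as were 57% of all genes tested. No immediate early gene passed in that fit either, which called 85 genes (0.989%), all lower in Sca1+. Jun (0.82 ± 0.26, limma adjusted p = 0.259), Egr1 (0.78 ± 0.22, 0.224), Junb (0.63 ± 0.25, 0.317) and Atf3 (0.53 ± 0.22, 0.320) had an unadjusted p under 0.05, as did 7.67% of all genes on the higher side. Ier2 lay the other way at -0.62 ± 0.26 (limma adjusted p = 0.327). Within each set, 8 of the 10 genes were higher on the Sca1+ array than on every Sca1- array of that set, as were 26.2% of all genes tested; the exceptions were Ier2 and Egr2. Junb was higher in Sca1+ by 1.03 among the unnumbered arrays and by 0.34 among the numbered arrays, and Nr4a1 by 0.46 and 0.51. For Ier2 the differences were -1.07 and -0.28. With group only, leaving out Sca1+ replicate 1 put the median over the 10 genes at 1.04, and leaving out Sca1+ replicate 2 put it at -0.96, so the direction without the block depended on which Sca1+ array was kept. Granulocyte markers moved with the fractions, with sums of 137084 and 9814 in Sca1+ and 570343, 220413 and 194820 in Sca1-, and so did the Actb ratio among the unnumbered arrays. With the block, 5 of 12 granulocyte markers were called lower in Sca1+, with a median difference of -3.28, where 0.989% of all genes were called. The summed signal of the fibroblast markers was higher in Sca1+ within both sets. It was 116181 in Sca1+ and 45956 and 43538 in Sca1- among the numbered arrays. Among the unnumbered arrays it was 11169 in Sca1+ and 6562 in Sca1-, with Fn1 at 8364 and 2106. Most other fibroblast markers were lower in Sca1+ there, such as Col1a2 (784 against 1822), while Col3a1 was higher (543 against 418). The median difference of the fibroblast markers with the block was 1.06 and 0 of 15 were called. Macrophage markers had a median difference of 0.74 with the block, Adgre1 standing at 1.73 ± 0.54 (SE, limma adjusted p = 0.250), and 0 of 11 were called. Their part in the differences was not tested. Of 14 endothelial markers, 3 and 9 exceeded a signal of 100 in Sca1+ and 8, 6 and 6 did in Sca1-; Tek and Tie1, defining genes of the endothelial label, were under 64 on all 7 arrays, while Kdr (141 to 432) and Eng (184 to 749) exceeded 100 on all 7. Pecam1 had signals of 14.99 and 206 in Sca1+ and 23.2, 117 and 25.8 in Sca1-.

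**Figure D4:**
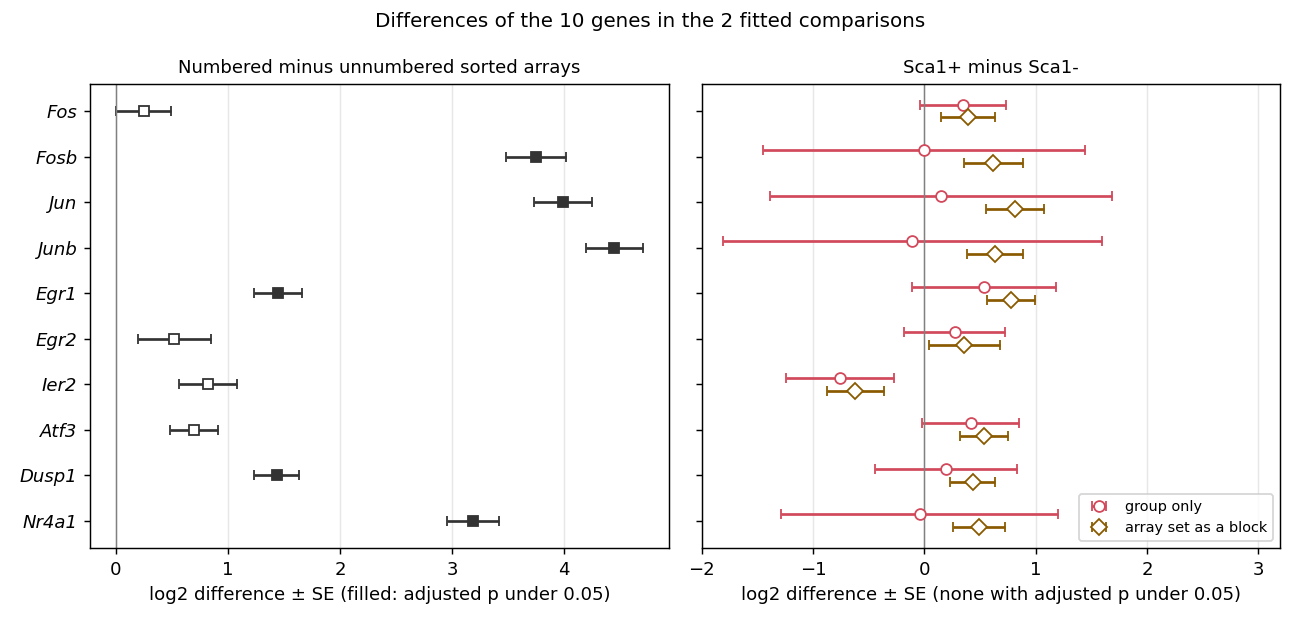
Log2 difference ± SE of each gene between numbered and unnumbered sorted arrays (left, filled squares with an adjusted p under 0.05) and between Sca1+ and Sca1- arrays (right), with group only (circles) and with array set as a block (diamonds). The left panel reaches 4.45 for Junb, while no difference in the right panel passed and the widest SE, 1.70, is that of Junb with group only.

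With trimmed mean scaling, the feeder layer and the unsorted progenitors had immediate early signals within 2-fold of each other; with median scaling Jun was the exception. They are 1 array each, from separately deposited tables under different array platforms, so no test was made. With the trimmed mean none of the 10 genes was 2-fold apart, where 4.08% of 9751 genes reached that size on the higher side and 15.9% on the lower side in the feeder. The largest differences were those of Jun, 0.89 on the log2 scale, and Dusp1, 0.59, followed by Fosb (0.54) and Nr4a1 (0.53). Junb was the one gene lower on the feeder array, at -0.29, and Fos (0.04), Ier2 (0.10) and Egr1 (0.21) lay close to 0. The median was 0.41 over the 10 genes and -0.13 over all 9751 genes compared, and 9 of the 10 lay above 0, where 42.1% of all genes did. With quantile normalization Fos (-0.09) and Ier2 (-0.05) also lay below 0, as Junb did (-0.45). Under median scaling all 10 lay above 0, with the median over all genes at 0.29, and Jun at 1.25 passed 2-fold, as did 847 of 8773 genes on the higher side. The counts over all genes were then 676 higher and 846 lower with quantile normalization and 847 higher and 577 lower with median scaling, against 398 and 1548. Against the sorted arrays, the feeder array lay above all 5 for Egr2, Atf3 and Nr4a1, which is 3 of the 10 against 23.4% of 10565 genes, and the unsorted array for Nr4a1 alone, against 35.4%. The feeder array lay below all 5 for 0 of the 10, against 18.7%, and the unsorted array for 0, against 14.5%. A control probe set for cre, not a mouse gene, also separated these arrays. Its signal was 14794 on the feeder array and 13550 on the unsorted array, against 45164 to 111744 on the sorted arrays. What part this played in these orders was not tested. The unsorted array lay above both unnumbered sorted arrays for 9 of the 10 genes, against 50% of all genes, with Fos as the exception. Jun is counted here at its brighter probe set, and its second probe set did not have this order. Against the mean of the numbered sorted arrays alone, Nr4a1 was higher by 1.14 on the feeder array and by 0.62 on the unsorted array, while Junb was lower there, at -0.70 and -0.41.

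Further genes of the same response, from lists that were drawn up with earlier results of these data known, held genes that were higher and genes that were lower on the numbered arrays. Of 41 other immediate early genes, 35 were tested between numbered and unnumbered sorted arrays; 12 were higher and 2 lower, with a median of 0.35. Over all genes tested 11.8% were higher and 7.46% lower, with a median of 0.10. The matricellular genes Ccn2 (5.07 ± 0.24, SE, limma adjusted p = 0.00123) and Ccn1 (4.07 ± 0.32), the stress phosphatase regulator Ppp1r15a (3.09 ± 0.26) and the small GTPase gene Rhob (3.08 ± 0.26) had the smallest p. Ccn2 had signals of 3321, 2195 and 2320.4 on the numbered arrays, against 105 and 4.4 on the unnumbered sorted arrays, and 7342 and 1378 on the feeder and unsorted arrays. Ccn2 was under the floor on Sca1- replicate 1 and Ccn1 on both unnumbered sorted arrays, so the sizes of their differences depend on it. The feeder array exceeded the unsorted array by 2.41 for Ccn2 and by 2.09 for Ccn1. Of 13 tested AP-1 and ATF relatives, 3 were higher and 0 lower, namely Atf5 (2.70 ± 0.33), Atf4 (1.54 ± 0.25) and Jund (1.94 ± 0.35), which encodes the constitutive Jun protein.

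The counts for the other lists stand against the same 11.8% higher and 7.46% lower over all genes tested. Of 9 tested genes for SRF, its partners, CREB and Egr corepressors, 1 was higher on the numbered arrays: Nab2, which encodes a corepressor that Egr proteins induce, at 2.42 ± 0.27 (SE, limma adjusted p = 0.00483). Of 13 tested MAP kinase relay genes, 1 was higher and 2 lower, the kinase genes Mapk14 (-2.01 ± 0.21) and Map2k4 (-1.18 ± 0.24) on the lower side, with a median of 0.02. Of 9 tested feedback genes that damp the pathway, 3 were higher and 0 lower: Spry2 (2.34 ± 0.31), Spred2 (1.52 ± 0.26) and Dusp6 (1.12 ± 0.28). Of 8 tested AP-1 targets, 3 were higher and 1 lower; the heme oxygenase gene Hmox1 (2.74 ± 0.41) and the protease inhibitor gene Timp1 (2.43 ± 0.42) were among the first, and the granulocyte protease gene Mmp9 (-3.44 ± 0.22) was the last. Of 15 tested heat shock and dissociation-stress genes, 6 were higher and 1 lower, with a median of 1.17. The chaperone genes Hspb1 (2.61 ± 0.28), Bag3 (2.25 ± 0.30) and Hspd1 (1.99 ± 0.34) were higher, and Dnajb1 (-1.30 ± 0.24), which is itself a classical heat shock gene, was lower. Between Sca1+ and Sca1-, none of the tested genes of these 7 lists passed with group only, where 0% of all genes did. With array set as a block 1 did, Mmp9 (-2.11 ± 0.22, limma adjusted p = 0.0142), where 0.989% of all genes did.

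Over the 6 arrays of the larger table Fosb, Junb and the brighter Jun probe set varied nearly in parallel, with Pearson's r between 0.993 and 0.996 for their pairs. The second Jun probe set was not used in these correlations. Among these arrays it was highest on Sca1+ replicate 1, where Fosb and Junb were low. Each gene was also set against the mean of the other 9. Fosb, Junb, Jun, Dusp1 and Nr4a1 had r of at least 0.96 with that mean, Egr1 0.898, Atf3 0.856, Egr2 0.696, Ier2 0.619 and Fos 0.341. These are descriptions over 6 arrays that share scaling and array set, and 2 of them, the unnumbered sorted arrays, lay far below the others for the genes with the highest r. The genes most like the mean of the 10 were Smyd2, Xist, Rgs1, Slc6a8 and Nacc1, each with r between 0.997 and 0.998, and 652 of 6953 genes with a log2 range of at least 1 (9.38%) had r over 0.9. Rgs1, which encodes a regulator of G-protein signalling, had signals of 439 and 5633 in Sca1+ and 271, 3100.0 and 3264 in Sca1-. It was also the gene most like Fosb, followed by Ccn2 and Fscn1. Fos had other neighbours, Pes1 (0.996), the macrophage scavenger receptor gene Msr1 (0.994) and Rngtt (0.992).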

How the data were processed

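The authors deposited linear signal intensities, a single value for each probe set. GCOS is named for the 3 numbered arrays, per the submitters' processing notes; for the other arrays no source used here names the software. The feeder array is in a table of its own and the other 6 arrays share another. Titles gave the groups and sample numbers, and the unnumbered sorted arrays count as replicate 1.

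Signals were rescaled (2% trimmed mean of 500 per array), floored at 64 and converted to log2. A gene was represented by its brightest probe set on average, among probe sets annotated to that gene alone. Of 12393 genes, 8591 exceeded a signal of 100 on 2 or more of the 5 sorted arrays and were tested with limma 3.58.1 in R 4.3.3 (intensity trend, Benjamini-Hochberg at 0.05). Residual degrees of freedom were 3 with group only and 2 with array set. The fits were run on simulated data with mostly less spread between arrays than the real data. The simulated Sca1 contrast held no array set difference, so these runs only checked whether added differences were returned. Alternatives were other scalings, floors, filters and probe set rules, blocks and leaving out arrays. Fitting each probe set as its own row and leaving out both unnumbered sorted arrays were chosen after seeing the data. From each further list, up to 4 genes of smallest p could be named (without a test, those of largest difference whose higher signal passed 500). The genes most like the 10 were the 5 with highest r, and 3 for a single gene. The genes and lists were chosen with earlier results of these data known. Figures were drawn with matplotlib 3.10.9.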

Additional observations from a re-analysis of the deposited data

Results flagged for a closer look

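Egr2 was the one immediate early gene whose Sca1+ and Sca1- arrays differed in opposite directions in the 2 array sets. Sca1+ minus Sca1- was -0.0215 on the log2 scale among the unnumbered arrays (1 array of each fraction, signals of 278 in Sca1+ and 282 in Sca1-) and 0.646 among the numbered arrays (519.8 in Sca1+, 387 and 285 in Sca1-). The difference between the sets was not tested. No group held 4 or more arrays, so no array was examined as an outlier of its group.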

How the results depend on the processing

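Between Sca1+ and Sca1-, 0 genes were called with group only, 1 without the filter on dim genes, 85 with array set as a block and 80 with the replicate block; the labels do not say that equal replicate numbers pair samples. Of 160 alternative values for the 10 genes, 131 kept their direction and 29 turned it. The near-zero difference of Fosb became 0.22 with quantile normalization, 0.055 with median scaling and 0.042 with a floor of 16, and that of Nr4a1 0.091 with quantile normalization and 0.0045 with median scaling. With array set as a block Fosb, Junb and Nr4a1 were at 0.62, 0.63 and 0.49, with the replicate block at 0.61, 0.68 and 0.45, and without both unnumbered sorted arrays at 0.64, 0.34 and 0.51. Leaving out 1 array at a time gave -1.89 to 1.89 for Fosb, -1.63 to 1.93 for Jun, -2.13 to 1.92 for Junb, -0.10 to 1.17 for Egr1, -0.18 to 0.73 for Egr2, -0.52 to 0.91 for Dusp1 and -1.65 to 1.57 for Nr4a1, each lowest without Sca1+ replicate 2 and highest without Sca1+ replicate 1. Between numbered and unnumbered sorted arrays, 1653 genes were called, 541 with the floor doubled, 31 without the filter, where 2 of the 10 genes (Fosb and Nr4a1) passed, and 2666 probe sets with each as its own row. Leaving out 1 array gave 642 (without Sca1- replicate 1) to 2939 (without Sca1+ replicate 2), and -0.13 to 0.53 for Fos. Of 130 alternative values for the 10 genes, 119 kept direction and call, 5 lost and 5 gained a call and 1 turned. Without the filter the adjusted p of Jun, Junb and Dusp1 was 0.0503 and that of Egr1 0.0760. Between the feeder and unsorted arrays, genes at least 2-fold apart numbered 676 higher and 846 lower with quantile normalization, 847 and 577 with median scaling (where Jun, at 1.25, passed 2-fold), and 262 and 608 with the floor doubled, against 398 and 1548. The causes were not tested. On Sca1- replicate 1, signals near background limit the size of the differences of Fosb, Junb, Nr4a1 and the brighter Jun probe set.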
